A study of Homo sapiens with 15 samples.

Results

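Ectopic expression of TRF2 in senescent fibroblasts was described from 6 of the 15 RNA-seq libraries of the series, 3 libraries of senescent cells carrying a TRF2-expressing lentivirus (senescent TRF2) and 3 of senescent cells carrying the empty vector (senescent empty), as their labels name them. Of the 57272 genes in the count table, 14600 had enough reads in these libraries to be tested. All 6 libraries came from MRC-5, an established line of human fetal lung fibroblasts, grown at 5% O2. The cells were infected in a pre-senescent stage with pWPIR-GFP (empty) or pWPIR-GFP-TRF2, and RNA was taken when they reached senescence. The count columns of both groups are labelled siCtrl, a label they share. The study describes siRNA transfection only for young cells, so whether and when the senescent cells received a control siRNA is not given. The empty-vector cells were collected at population doubling (PD) 71 and the TRF2 cells at PD 75, so that the transgene and the number of divisions cannot be told apart. The other libraries of the series were young cells at PD 30 with the empty vector, with TRF2 or with an siRNA against lamin B1, and the senescent libraries were reanalysed from an earlier deposit. The study describes the replicates of its RNA-seq counts as biological, and the labels number the libraries of a group without saying whether their cells were infected separately, so p-values measure the spread between these libraries.

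TRF2, encoded by TERF2, is a subunit of shelterin, the protein complex that binds telomeric repeats and keeps chromosome ends from being read as DNA breaks. It folds the chromosome end into a loop and blocks signalling through the ATM kinase, and its protein level is known to fall when human fibroblasts reach replicative senescence. Senescent fibroblasts stay alive without dividing, keep high levels of CDK inhibitors and secrete cytokines, growth factors and proteases.

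TERF2 was measured first. Its normalized counts (read counts scaled by library size, TMM factors) were 713, 789 and 773 in the senescent empty libraries and 6456, 8695 and 6374 in the senescent TRF2 libraries. The groups lay far apart. TERF2 rose 9.46-fold, a log2 fold change of 3.24 ± 0.16 (SE, n = 3 per group, adjusted p = 0.00058, quasi-likelihood test of edgeR, adjusted by Benjamini-Hochberg, as for every p below unless another tool is named). Reads of the transgene and of the cells' own gene are counted together. The other 5 shelterin genes, TERF1, which also binds telomeric duplex DNA, TERF2IP, the partner that TRF2 recruits, TINF2, which bridges subunits, and ACD and POT1, which serve the single-stranded end, had log2 fold changes between -0.10 and 0.20, with the smallest p at 0.20 before adjustment.

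Few genes were called with all 6 libraries. A call here is an adjusted p below 0.05 in edgeR, unless another fit is named. With all 6 libraries, 2 of 14600 genes passed an adjusted p of 0.05, TERF2 and PCDHB15, both higher with TRF2 (0.0137% of genes tested), and none was lower, while 2443 genes had an unadjusted p below 0.05 and DESeq2's Wald test called 255 higher and 491 lower. The third empty-vector library stood apart. Its level increased by 0.29 on the log2 scale for each 10 points of exonic GC content against -0.08 to -0.04 in the other 5 libraries, and it was the highest of the 6 libraries in 34.1% of genes and the lowest in 35.7%. Its limma voom quality weight was 0.0915, against 0.542 and 1.30 for the first and second empty-vector libraries and 1.78 to 4.18 for the TRF2 libraries. Across genes, the TRF2 fold change moved by -0.11 per 10 points of GC with this library and by 0.0011 without it.

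The weight of that library was then measured by leaving it out. Without it, 96 genes were called higher and 168 lower among 14855 tested (0.646% and 1.13%), and the biological coefficient of variation went from 0.175 to 0.095. In 250 of these 264 genes the left-out library lay on the same side of the TRF2 mean as the other empty-vector libraries, and in 244 it lay clear of all 3 TRF2 libraries. For most of these calls the value of the left-out library thus pointed the same way. Over all tested genes, that library was the highest of the 6 in 34.1% and the lowest in 35.7%, so lying clear of the TRF2 libraries was common for it. The share of all genes clear on a given side was not counted, and the 244 are no separate support. Sample quality weights called 755 higher and 857 lower (5.17% and 5.87%), and 263 of the 264 genes were among them, all in the same direction. That fit keeps all 6 libraries but gave the third empty-vector library a weight of only 0.0915. It is thus close to the fit without that library, and the shared calls are not separate support. One model of all 15 libraries called 770 higher and 1012 lower (4.87% and 6.41%). GC and length offsets called 102 higher and 227 lower (0.699% and 1.55%), with 179 genes shared. Leaving out the first empty-vector library instead gave more calls, 567 higher and 689 lower. Leaving out the second empty-vector library, or any 1 of the TRF2 libraries, left 1 call, TERF2. The number of calls thus ranged from 1 to 1256 with the library left out, and the direction of the genes described below is given from the library values, with the call without the third empty-vector library stated as such.

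**Figure D1:**
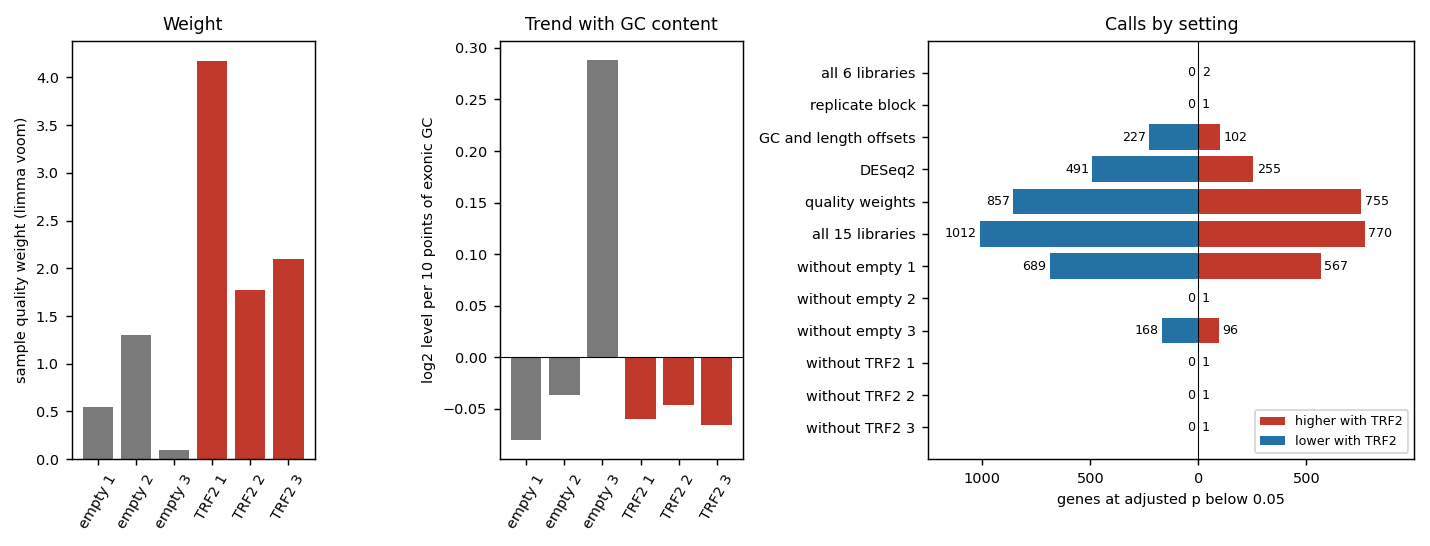
Left, quality weight of each of the 6 senescent libraries from limma voom. Middle, slope of the log2 level on exonic GC content, in log2 units per 10 percentage points. Right, genes at an adjusted p below 0.05 in each setting, lower with TRF2 to the left and higher to the right. The third empty-vector library has the lowest weight, 0.0915, and the only positive GC slope. The calls number 2 with all 6 libraries. They run from 1, as without the second empty-vector library, to 1782 with all 15 libraries in one model.

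The largest median rise among the gene sets was that of the beta cluster of the clustered protocadherins. These are cell adhesion proteins made from tandem gene arrays on chromosome 5 whose members are switched on in different combinations in different cells. Each member of the beta cluster is a gene of a single exon with its own promoter, and these promoters are known to share a conserved sequence element and to be bound by CTCF. To show this element beside the values, the promoters (250 bases before to 50 after the start, RefSeq, GRCh38.p14, plus strand) are given for the 3 beta genes with the smallest p, PCDHB15 at chr5:141245145-141245444, PCDHB16 at chr5:141182137-141182436 and PCDHB14 at chr5:141223093-141223392. Capitals mark the letters GGTGGCGCT.
PCDHB15: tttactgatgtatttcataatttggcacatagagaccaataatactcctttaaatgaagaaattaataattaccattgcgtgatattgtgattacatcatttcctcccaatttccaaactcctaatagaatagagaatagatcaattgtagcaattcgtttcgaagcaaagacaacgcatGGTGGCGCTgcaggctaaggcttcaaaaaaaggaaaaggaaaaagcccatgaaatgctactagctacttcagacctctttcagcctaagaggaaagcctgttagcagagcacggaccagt
PCDHB16: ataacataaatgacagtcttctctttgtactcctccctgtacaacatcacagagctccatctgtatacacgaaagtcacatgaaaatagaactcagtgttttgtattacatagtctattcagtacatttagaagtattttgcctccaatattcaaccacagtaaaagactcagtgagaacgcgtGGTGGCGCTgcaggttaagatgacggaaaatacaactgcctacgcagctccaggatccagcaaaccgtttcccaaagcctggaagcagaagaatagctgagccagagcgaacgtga
PCDHB14: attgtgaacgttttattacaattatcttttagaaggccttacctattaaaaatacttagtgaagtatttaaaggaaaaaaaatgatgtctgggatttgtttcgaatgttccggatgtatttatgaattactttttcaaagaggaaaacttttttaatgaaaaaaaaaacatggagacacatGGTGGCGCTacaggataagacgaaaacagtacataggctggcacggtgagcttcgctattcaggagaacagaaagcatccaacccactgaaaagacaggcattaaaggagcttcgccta
The run lies 70, 66 and 69 bases before the start in these 3 promoters. It was noticed in these promoters and then searched on both strands in all of them. It occurs in all 13 beta promoters of the reference table (15 beta genes are in the list) and in none of 31 alpha and gamma promoters, against 0.619% of the 27305 genes with a promoter there. The exact letters were read from beta promoters. Their absence from alpha and gamma promoters thus does not show that those lack a related element. The telomeric repeat TTAGGG occurs in 1 of the 13 beta promoters, against 10.9% of all. A match of letters says nothing of binding in these cells.

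PCDHB15 had normalized counts of 14.8, 18.2 and 18.3 in the senescent empty libraries and of 95.0, 85.4 and 86.5 in the senescent TRF2 libraries. It was the other gene that passed with all 6 libraries, and rose 5.16-fold (log2 fold change 2.37 ± 0.21, SE, adjusted p = 0.032). In young cells it did not differ beyond its spread, with a log2 fold change of 0.13 ± 0.36, and the difference between the effects passed the test (2.23, adjusted p = 0.037). PCDHB16 went from 51.2, 58.2 and 52.1 to 158, 148 and 135, a log2 fold change of 1.45 ± 0.17. PCDHB14 had 131, 96.9 and 86.8 in the empty libraries and 259, 248 and 255 with TRF2. In both genes the groups lay well apart, and both were called without the third empty-vector library (adjusted p = 0.021 and 0.029) but not with it (0.064 and 0.066).

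All 13 beta genes tested had TRF2 libraries clear above the empty-vector libraries, where 13.8% of all tested genes did, and their median log2 fold change was 1.22 against -0.01 for all genes tested. Without the third empty-vector library 5 of the 13 were called higher, PCDHB9, PCDHB13, PCDHB14, PCDHB15 and PCDHB16, and none lower, with a median of 1.11. Over all genes, 0.646% were called higher and 1.13% lower in that fit. PCDHB13 shows how the third library acted, with 249, 230 and 93.5 in the empty libraries and 428, 432 and 459 with TRF2. Its groups were apart whether or not the third library was kept, and its log2 fold change was 0.87 without it and 1.21 with it. Of the 22 gamma genes, 20 had a positive log2 fold change (median 0.65, 0.36 without the third library), 13 had groups that did not overlap, and 3 were called without it, PCDHGA2, PCDHGB1 and PCDHGB7. The gamma genes share their last exons, so that in the median gene 43.8% of exonic bases also belong to another gene, and the reads of single gamma genes are uncertain. Beta genes resemble each other in sequence as well (median overlap 6.8%), and reads that fit more than 1 copy could be split or lost. Over the whole list of 50 genes, 37 were tested, 35 were positive, 27 had groups apart in the higher direction and none in the lower. In young cells the median of the 37 was 0.03.

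**Figure D2:**
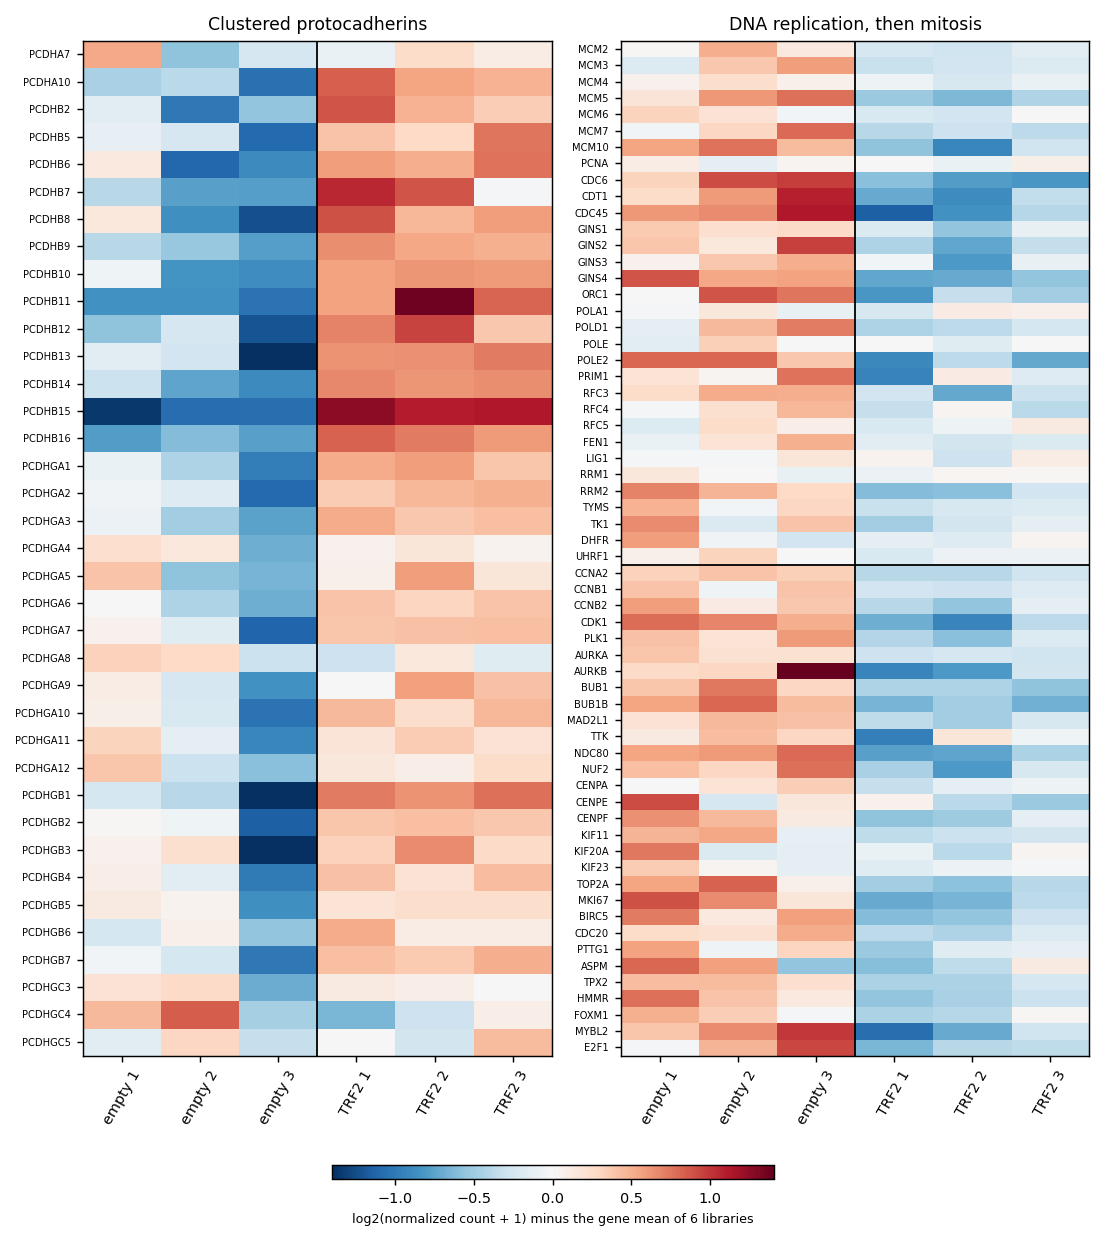
Each row is a gene and each column 1 of the 6 senescent libraries, with log2(normalized count + 1) minus the gene's mean over the 6 libraries in colour (red above, blue below). Left, the 37 clustered protocadherins tested; right, the 32 DNA replication genes and, under the line, the 30 mitosis genes. The beta protocadherins are red in all 3 TRF2 columns, and most cell cycle genes are blue there.

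Genes of DNA replication and mitosis had lower values with TRF2 throughout. They are expressed by dividing cells and are known to be held down in senescence by the CDK inhibitors and the pocket proteins, through E2F sites in replication genes and the cell cycle genes homology region in mitotic genes. In bulk libraries, a smaller share of cells that express these genes and less RNA per cell cannot be told apart. The promoters of CDC6, which loads the replicative helicase (chr17:40287629-40287928), and of CDK1, the kinase that starts mitosis (chr10:60778228-60778527), are shown on the same build, plus strand, because they hold these elements. Capitals mark TTTGGCGC in CDC6 and TTTGAA, or its reverse complement, in CDK1.
CDC6: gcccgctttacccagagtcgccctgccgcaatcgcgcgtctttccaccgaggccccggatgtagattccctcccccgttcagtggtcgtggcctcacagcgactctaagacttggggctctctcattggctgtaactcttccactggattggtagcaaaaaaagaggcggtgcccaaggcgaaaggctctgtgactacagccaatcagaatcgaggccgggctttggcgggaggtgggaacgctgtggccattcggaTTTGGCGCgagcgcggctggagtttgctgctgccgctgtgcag
CDK1: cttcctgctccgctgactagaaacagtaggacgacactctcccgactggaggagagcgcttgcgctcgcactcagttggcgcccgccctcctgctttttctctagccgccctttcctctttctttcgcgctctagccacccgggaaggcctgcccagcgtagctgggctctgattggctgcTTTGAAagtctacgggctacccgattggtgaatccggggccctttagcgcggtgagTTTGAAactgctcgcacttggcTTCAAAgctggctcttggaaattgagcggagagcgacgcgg
TTTGAA occurs on either strand in 18 of the 27 mitosis promoters available and in 1 of 28 replication promoters, against 18.2% of all promoters. TTTGGCGC or TTTCCCGC occurs in 16 of the 28 replication promoters and 3 of the 27 mitosis promoters, against 2.75% of all. The 2 lists differ in these letters, while both had lower values with TRF2.

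CDK1 had normalized counts of 257, 241 and 214 in the senescent empty libraries and of 93.1, 78.6 and 116 with TRF2. CDC6 had 173, 262 and 273 in the empty libraries and 92.1, 80.5 and 78.7 with TRF2. No empty-vector library of either gene reached down to the TRF2 libraries, and the log2 fold changes were -1.30 ± 0.19 and -1.50 ± 0.21 (adjusted p = 0.066 for both with 6 libraries, 0.027 and 0.035 without the third empty-vector library). GINS4, a subunit of the replicative helicase, went from 216, 171 and 175 to 70.6, 71.8 and 79.6. TOP2A, the topoisomerase of dividing cells, had 864, 1038 and 619 in the empty libraries and 417, 394 and 448 with TRF2.

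All 32 replication genes and all 30 mitosis genes tested had a negative log2 fold change, with medians of -0.59 and -0.73. The groups did not overlap in 21 and 24 of them, where 14.2% of all tested genes were clear in that direction, and in none the other way. Without the third empty-vector library, 6 replication genes were called lower (CDC6, CDC45, CDT1, GINS4, MCM5 and RRM2, the ribonucleotide reductase subunit) and 11 mitosis genes (AURKA, BUB1, BUB1B, CCNA2, CDK1, CENPF, KIF11, MKI67, NDC80, TOP2A and TPX2), with none higher. Over all genes, 0.646% were called higher and 1.13% lower in that fit. Sample quality weights called 16 and 21 lower, where 5.87% of all genes were. The medians without the third library were -0.50 and -0.77, and the third library lay near the other empty-vector libraries for them (median log2 deviation from the gene means 0.42 against 0.17 and 0.30 for replication, 0.32 against 0.46 and 0.40 for mitosis). In young cells the medians were -0.25 and -0.22, with no gene of either list called. The effect differed between senescent and young cells for 3 replication and 5 mitosis genes (1.13% of all genes differed), among them CDC6, CDC45, GINS4, CDK1, NDC80, BUB1, BUB1B and TOP2A, each more negative in senescent cells.

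The high mobility group genes HMGA1 and HMGA2, which encode architectural chromatin proteins, also had lower values. HMGA2 had normalized counts of 8860, 19316 and 12483 in the empty libraries and 4208, 3988 and 4710 with TRF2, 3.15-fold lower. HMGA1 went from 33120, 45636 and 56015 to 20885, 19719 and 22049, 2.15-fold lower. The TRF2 libraries were tight and below every empty-vector library, and both genes were called without the third library (adjusted p = 0.040 and 0.029). CDKN1A, which encodes the CDK inhibitor p21, was at 106006, 85306 and 98895 in the empty libraries and at 99681, 98782 and 104124 with TRF2, with overlapping groups (log2 fold change 0.06 ± 0.12). CDKN2A, which encodes p16, had 1051, 1193 and 1826 against 1762, 1975 and 1784. Here the third empty-vector library lay among the TRF2 libraries, and the gene was called without it, at a log2 fold change of 0.71 (adjusted p = 0.021), but not with it at equal weight (0.44, 0.32).

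**Figure D3:**
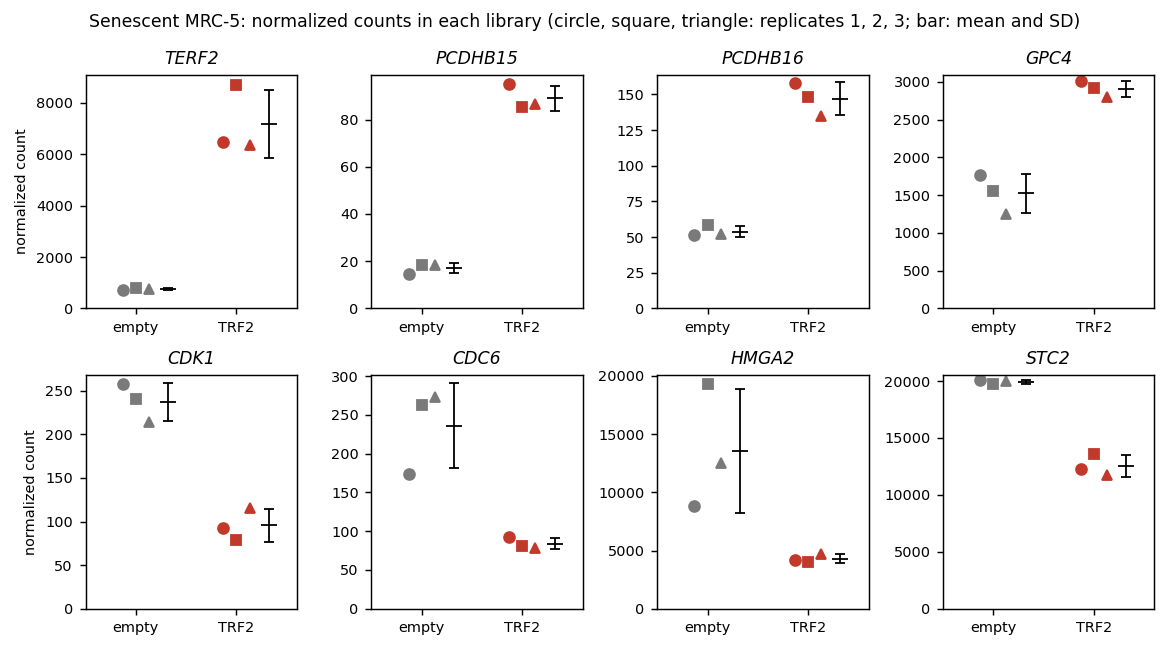
Normalized counts of 8 genes in each of the 3 senescent empty (grey) and 3 senescent TRF2 (red) libraries, with the mean and SD as a black bar and a linear axis from 0. TERF2 lies at means of 758 without and 7175 with the transgene, PCDHB15, PCDHB16 and GPC4 are higher with TRF2 in every library, and CDK1, CDC6, HMGA2 and STC2 are lower in every library.

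Many genes of the fibroblast matrix had higher values with TRF2. The label of the cells was checked against 12 fibroblast markers, all of which (among them COL1A1, COL1A2, DCN, LUM, PDGFRA, THY1 and VIM) had means over 100, with summed normalized counts of 606198 to 739678 in the empty libraries and 797105 to 987423 with TRF2. Of 12 epithelial, 10 endothelial, 12 blood and 8 producer cell markers, 3, 2, 0 and 1 reached a mean of 100, with sums between 77.9 and 3390 in any library. The fibroblast markers themselves had a median log2 fold change of 0.51, 8 of 12 had TRF2 libraries clear above the empty ones (13.8% of all tested genes did), and DCN and PDGFRB were called without the third library (0.646% of all genes were called higher there). DCN, the small collagen-binding proteoglycan decorin, had 8161, 5752 and 5970 in the empty libraries and 12478, 14002 and 12586 with TRF2, 1.97-fold higher, and was also called in young cells (log2 fold change 0.77 ± 0.14, adjusted p = 0.026). PDGFRB, a PDGF receptor, went from 8458, 7594 and 6040 to 10515, 11180 and 10588.

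Among 26 proteoglycan and hyaluronan genes tested, 5 were called higher without the third library (DCN, GPC4, PODN, SDC2 and VCAN) and 1 lower (XYLT1, which starts the sugar chains), with a median of 0.44 over 6 libraries, 13 genes clear above and 2 clear below. Over all genes, 0.646% were called higher and 1.13% lower in that fit, and 13.8% were clear above and 14.2% clear below. GPC4, a glypican of the cell surface, had 1763, 1554 and 1252 in the empty libraries and 3005, 2914 and 2800 with TRF2 (log2 fold change 0.93 ± 0.14, adjusted p = 0.066, 0.018 without the third library). SDC2, a syndecan, went from 3341, 2625 and 2548 to 4305, 4285 and 4377. For both, the effect was larger in senescent than in young cells (differences 0.71 and 0.62, adjusted p = 0.045 and 0.032). LUM, lumican, had 801, 564 and 501 against 1231, 1477 and 1034. It was not called in senescent cells with 6 libraries or without the third (adjusted p = 0.089 and 0.062). The 15-library model called it in both states, with log2 fold changes of 0.999 in senescent and 0.773 in young cells (adjusted p = 0.00072 and 0.041). The effects did not differ detectably there (difference 0.23, adjusted p = 0.60).

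Of 24 collagen genes, COL4A5 and COL12A1 were called higher without the third library (0.646% of all genes were) and none lower, with a median of 0.34 (0.18 without it). COL12A1, a collagen of fibril surfaces, had 15963, 12500 and 4975 in the empty libraries and 20510, 23814 and 21834 with TRF2, so that a log2 fold change of 0.99 with the third library was 0.63 without it. VCAN, the large proteoglycan versican, had 6012, 5065 and 1722 against 8611, 8959 and 9146, with 1.06 and 0.69. In both genes the third library held the lowest value by far and widened the error. COL1A1, the main fibrillar collagen, differed by 0.34 ± 0.15 (adjusted p = 0.30). MFAP2, a microfibril protein, was called without the third library (118, 114 and 165 against 245, 237 and 249), and THBS1, the thrombospondin that binds matrix and activates TGF-beta, was not (63522, 45638 and 28451 against 83245, 82647 and 84879, adjusted p = 0.17, 0.062 without the third library). IGFBP5, an IGF-binding protein of senescent cells, had 136129, 86272 and 59148 against 199083, 251140 and 152479, with no overlap. It was not called with 6 libraries or without the third (adjusted p = 0.16 and 0.11), and was called without the first (0.022), with quality weights in limma (0.015), by DESeq2 (0.012) and in the 15-library model (0.0053).

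Adhesion receptors divided by member. ITGA8, an integrin subunit of smooth muscle and mesenchyme, had 830, 648 and 404 in the empty libraries and 1848, 1668 and 1815 with TRF2 (log2 fold change 1.50 ± 0.24). ITGA6, a laminin receptor subunit, had 7498, 10563 and 6160 against 4419, 3446 and 4388, and ITGA3, a laminin receptor subunit as well, 25090, 29992 and 27648 against 18858, 18985 and 18689. The groups of all 3 genes were apart, in opposite directions. Of 26 integrin and adhesion genes tested (median 0.14), 3 were called higher without the third library (ITGA8 and the cadherins CDH2 and CDH6) and 2 lower (ITGA3 and ITGA6), where 0.646% and 1.13% of all genes were. CDH2, N-cadherin, had 481, 447 and 315 against 680, 705 and 714, with an effect that was larger than in young cells (difference 0.77, adjusted p = 0.032).

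Lipid carriers and metal-binding proteins were among the lower genes. FABP4, a fatty acid carrier best known from adipocytes, had 42.1, 47.9 and 57.8 in the empty libraries and 12.7, 6.79 and 11.3 with TRF2. FABP5, its relative, had 115, 178 and 278 against 52.9, 53.4 and 67.5. SCD, which makes monounsaturated fatty acids, was higher, at 17039, 15285 and 10056 against 22176, 22329 and 22947, and these were the 3 of 20 lipid genes called without the third library, 1 higher and 2 lower against 0.646% and 1.13% of all genes. Among 26 NRF2 targets and antioxidants, the 2 called lower without the third library were the metallothioneins MT2A and MT1E, which bind zinc and cadmium. MT2A had 41049, 66394 and 110560 against 26094, 23381 and 26330, with the highest value in the third empty-vector library and the lowest empty value in the first. Metallothionein copies are alike in sequence, and reads could be split between them. FOSL1, an AP-1 subunit, was called lower without the third library (4285, 5190 and 5881 against 3321, 3412 and 3414), the only call among 23 AP-1 and immediate early genes. SMTN, a smooth muscle cytoskeletal protein, was the only call among 15 contractile genes in that fit, also lower (3441, 4191 and 5317 against 2749, 2742 and 2801). Of these 15 genes, 12 had a positive log2 fold change (median 0.20). The groups were clear above in 3 and clear below in 1, where 13.8% and 14.2% of all tested genes were. Quality weights called 4 higher and 1 lower, where 5.17% and 5.87% of all genes were.

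Secreted signals lay in both directions. STC2, a secreted glycoprotein hormone, was at 20081, 19719 and 19984 in the empty libraries and at 12280, 13593 and 11723 with TRF2, a log2 fold change of -0.67 ± 0.10, and the 3 empty-vector libraries were almost equal. PDGFB, a PDGF ligand, had 655, 616 and 616 against 1006, 1213 and 998. KITLG, the ligand of the KIT receptor, had 2529, 2058 and 1003 against 3674, 3348 and 3729. Among 27 growth factor and receptor genes tested, 3 were called higher without the third library (KITLG, PDGFB and PDGFRB) and 1 lower (STC2), against 0.646% and 1.13% of all genes, and the median of the list was 0.10 with 6 libraries and -0.08 without the third. The plasminogen activator list had negative log2 fold changes in 8 of 9 genes (median -0.34), 7 of them with groups apart (14.2% of all tested genes were clear below) and 1 called without the third library, SERPINB2, the inhibitor PAI-2, which went from 391, 1112 and 955 to 165, 185 and 146.

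For another set of secreted factors the first empty-vector library, not the third, lay nearest to the TRF2 libraries. STC1, a paralog of STC2, had 7473, 23082 and 17307 in the empty libraries and 4186, 3987 and 4616 with TRF2. AREG, an EGF receptor ligand, had 180, 698 and 997 against 170, 177 and 213, and CXCL8, the neutrophil chemokine, 20.5, 178 and 162 against 15.7, 7.76 and 21.6. In AREG and CXCL8 the first empty-vector library fell within the range of the TRF2 libraries, whereas the other two were far above all of them. PLAU, urokinase, had 17693, 31700 and 40400 against 14622, 15476 and 14416. Without the first empty-vector library, STC1 and PLAU passed the test (adjusted p = 0.0032 and 0.0052), and with the first but not the third they did not (0.059 and 0.10). Of 12 interleukin and chemokine genes tested, none was called with 6 libraries or without the third, and 2 were called higher (CSF1 and CXCL12) and 2 lower (CXCL8 and IL11) with quality weights, where 5.17% and 5.87% of all genes were. The choice of the library left out thus decided the calls of STC1 and PLAU.

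**Figure D4:**
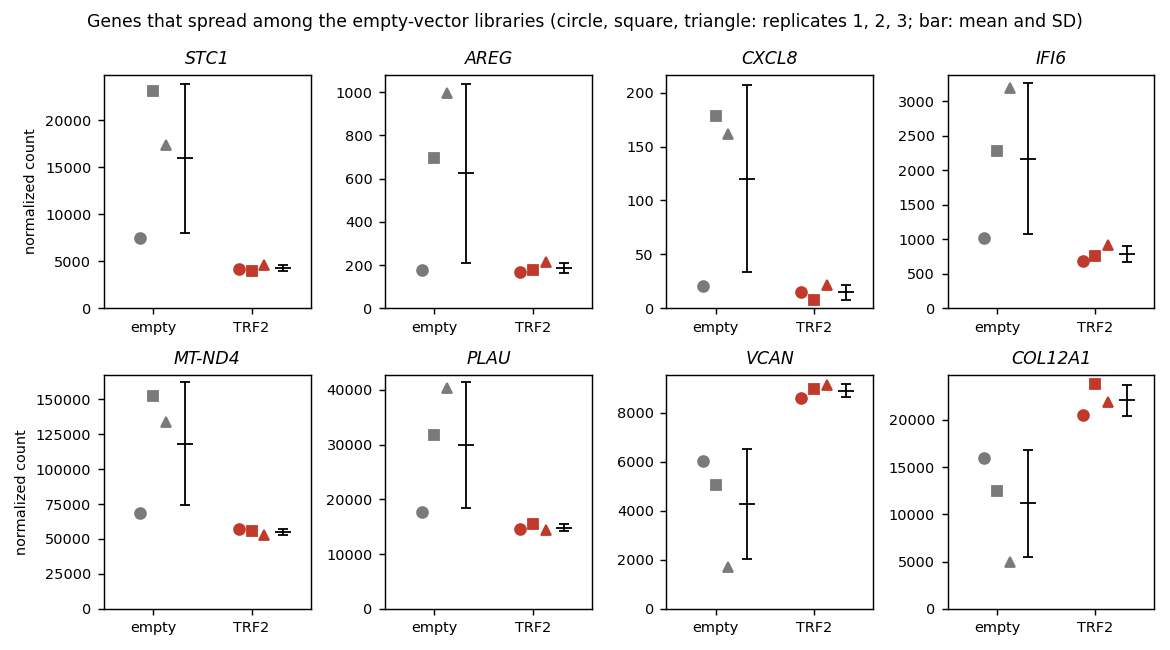
Normalized counts of 8 genes in each senescent empty (grey) and senescent TRF2 (red) library, with the mean and SD as a black bar and a linear axis from 0. In STC1, AREG, CXCL8, IFI6, MT-ND4 and PLAU the first empty-vector library (circle) lies nearest to the TRF2 libraries, and in VCAN and COL12A1 the third (triangle) lies farthest from them.

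Interferon-stimulated genes, which act against viruses, followed the same order of libraries. IFI6 had 1027, 2285 and 3194 in the empty libraries and 682, 759 and 915 with TRF2. IFIT3 had 420, 499 and 550 against 284, 267 and 329, and IFIT2 309, 403 and 355 against 212, 177 and 228. In these 3 genes every TRF2 library was below every empty-vector library. Of 35 genes of the list tested, 20 had a negative and 15 a positive log2 fold change, with a median of -0.42. The libraries were clear below in 12 and clear above in 2, where 14.2% and 13.8% of all tested genes were. None was called with 6 libraries or without the third, and 10 were called lower and 1 higher with quality weights, where 5.87% and 5.17% of all genes were. In young cells the median was 0.35, with no gene called, and 6 genes of the list had an effect that differed between senescent and young cells, all lower in senescent cells, among them IFIT2 (-1.38, adjusted p = 0.017), IFIT3 (-1.19, 0.013) and IFI6 (-2.11, 0.027). Over all genes, 1.13% differed, 0.956% with a lower effect in senescent cells. All cells of the comparison carry a lentiviral vector.

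All 15 transcripts of the mitochondrial genome tested had a negative log2 fold change (median -0.92). MT-ND4, a subunit of complex I, had 68671, 152314 and 133767 in the empty libraries and 56938, 55962 and 52750 with TRF2. MT-CO1, a subunit of complex IV, had 230751, 404544 and 312944 against 227176, 222682 and 208314. The TRF2 libraries were close to one another and the first empty-vector library was near them, and the groups did not overlap in 11 of 15 genes (14.2% of all tested genes were clear below). None was called with 6 libraries or without the third, and 12 were called lower with quality weights (5.87% of all genes were). These genes lie on one transcript per strand and are not independent of each other. The 66 nuclear genes of oxidative phosphorylation had a median of -0.20 with all 6 libraries and 0.01 without the third, and the 76 cytosolic ribosomal protein genes -0.17 and 0.04. None of either list was called in these fits, and their shift rested on the third empty-vector library. In young cells the mitochondrial genes had a median of 0.44, and 7 of 15 differed between senescent and young cells, where 1.13% of all genes did. The young empty-vector libraries spread as well. MT-ND4 had 44962, 44212 and 73667 in them and 86019, 67836 and 87642 in the young TRF2 libraries, on the 15-library scale.

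Cholesterol synthesis genes, which respond together to sterol levels through SREBP2, had small positive log2 fold changes. DHCR7, which makes cholesterol in the last step of one branch, had 9650, 8254 and 8328 in the empty libraries and 11632, 11665 and 12499 with TRF2. Of 26 genes tested, 21 were positive (median 0.25, 0.22 without the third library), and 12 had groups clear above and 1 clear below, where 13.8% and 14.2% of all tested genes did. None was called with 6 libraries or without the third, and 10 were called higher with quality weights, where 5.17% of all genes were. In young cells the median was -0.01.

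Beyond these lists, 12 protein-coding genes higher and 12 lower with TRF2 were taken by a rule (non-overlapping groups, a mean of at least 100 and an adjusted p below 0.05 both with all 6 libraries and without the third empty-vector library). Only TERF2 passed with all 6 libraries as well, and the other places went to the genes with the smallest p among those that met the rest of the rule. On the higher side, NPY, the neuropeptide Y precursor, went from 30.7, 23.9 and 55.9 to 273, 369 and 267 (log2 fold change 3.02 ± 0.31, adjusted p = 0.054). PTN, the heparin-binding growth factor pleiotrophin, had 834, 634 and 665 against 1618, 1681 and 1535, and FZD4, a Wnt receptor, 227, 226 and 170 against 396, 393 and 427. CACNG4, a calcium channel subunit, CLSTN2, a synaptic cadherin, RPS6KA5, a kinase that phosphorylates histone H3, and ITIH5, a hyaluronan-binding protein, had log2 fold changes between 1.46 and 1.89. PCDHB9, PCDHB14, PCDHB16 and GPC4 completed the 12. NPY, PTN and FZD4 had effects that differed between senescent and young cells (2.89, 0.88 and 1.27, adjusted p = 0.027, 0.022 and 0.023).

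On the lower side, VEPH1 had normalized counts of 399, 611 and 455 in the empty libraries and 142, 172 and 165 with TRF2, and QPRT, an enzyme of NAD synthesis, 2175, 1756 and 2356 against 965, 879 and 980. TFPI2, a protease inhibitor of the matrix, had 5133, 7828 and 7674 against 2910, 2689 and 2678. ASS1, which makes argininosuccinate in arginine synthesis, had 448, 332 and 434 against 183, 195 and 178. By the rule that chose them, no empty-vector library of these 4 genes reached the TRF2 range. SP140, a chromatin reader best known from immune cells, had 56.9, 129 and 138 against 17.6, 16.5 and 19.03. PARP3, a poly(ADP-ribose) polymerase of break repair, had 747, 683 and 804 against 410, 408 and 448, and SERPINB7, an intracellular serpin, 768, 830 and 754 against 389, 388 and 472. CLSPN, which links stalled replication forks to the checkpoint kinase, UBE2C, which marks mitotic proteins for degradation, and GINS4, CDC6 and CDK1 made up the rest.

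Genes near the chromosome ends were counted because the study asks about subtelomeres, here the first 2 Mb of each arm on GRCh38. Of 923 protein-coding genes and pseudogenes tested there, none was called with 6 libraries in edgeR, and 1 was called higher and 6 lower without the third one. Quality weights called 26 higher and 45 lower, where 5.17% and 5.87% of all genes were. The higher gene was APC2, a relative of the tumour suppressor APC on chromosome 19, with 433, 457 and 416 in the empty libraries and 654, 646 and 713 with TRF2. It was also called in young cells (log2 fold change 0.75 ± 0.12, adjusted p = 0.012). The lower genes were CDT1, NSD2, SPON2, SPRN, TACC3 and WNT5B. WNT5B, a Wnt ligand on chromosome 12, had 7071, 8366 and 9704 against 4734, 4720 and 4885, and SPON2, a matrix protein on chromosome 4, 19202, 19704 and 26718 against 12873, 13300 and 12411. The median log2 fold change of the 923 genes was -0.12 with 6 libraries and -0.01 without the third, against -0.01 for all genes with 6 libraries, and 82 were clear above and 153 clear below, where 13.8% and 14.2% of all tested genes were. The shift of the median toward lower values thus came and went with the library of high GC slope, and the calls without it were 1 and 6 of 923 against a background of 0.646% and 1.13%.

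Several lists had few or no calls. Without the third library, the 21 genes of heterochromatin and H3K9 methylation, the 14 of lamins and the inner nuclear membrane, the 14 of CTCF, MAZ and cohesin, the 22 of autophagy and the 28 of hypoxia and glycolysis had none, where 0.646% of all genes were called higher and 1.13% lower. With quality weights (5.17% and 5.87% of all genes) the calls were 1 higher and 1 lower for the lamins, 1 higher for autophagy, 3 higher and 2 lower for hypoxia and glycolysis, and none for the other two lists. Of 26 p53 targets, 16 had a positive log2 fold change (median 0.08), and 5 were called higher and 2 lower with quality weights. Without the third library the list had 1 call, TIGAR, which was lower (944, 961 and 510 against 634, 576 and 565), in which the third empty-vector library lay below the TRF2 libraries. GDF15, a secreted p53 target, had 4051, 6161 and 8399 against 2878, 3169 and 3175 and was not called (adjusted p = 0.11, 0.061 without the third library). Of the genes linked with TRF2 in other studies, 7 were tested, and VCAN and PDGFRB were called higher without the third library.

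**Figure D5:**
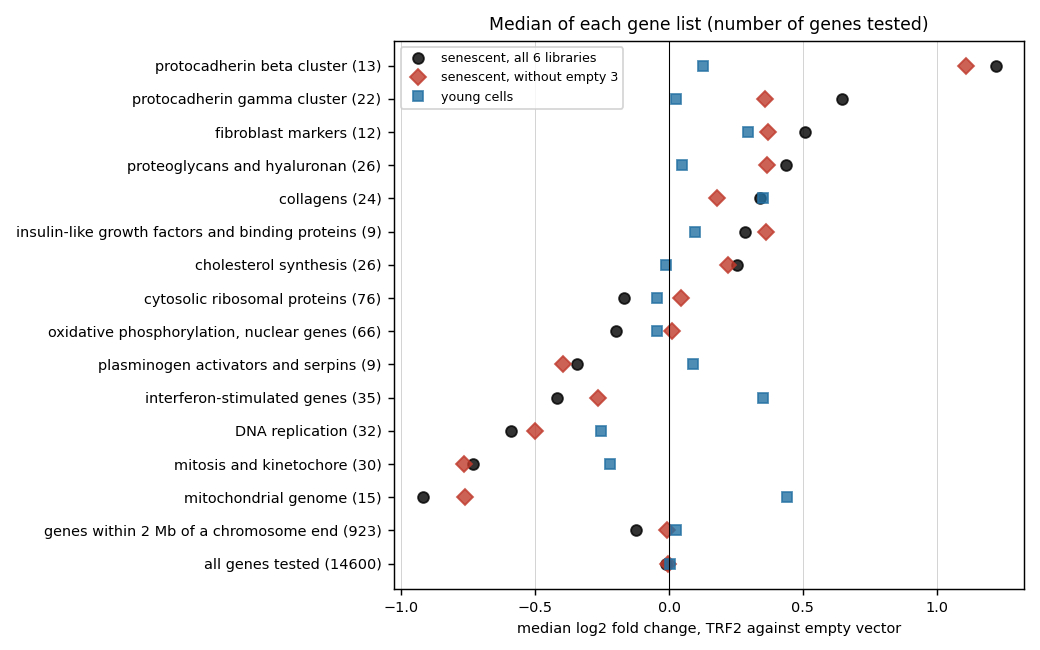
Median log2 fold change with TRF2 of 16 sets of genes (number tested in brackets), for senescent cells with all 6 libraries (circles), for senescent cells without the third empty-vector library (diamonds) and for young cells (squares). The beta protocadherins lie at 1.22 and 1.11 in senescent cells and 0.13 in young cells, and the ribosomal, oxidative phosphorylation and subtelomeric medians move to near 0 without the third library.

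TRF2 in young cells served as a comparison, from the 15-library model, in which 24 genes were higher and 4 lower (0.152% and 0.0253%). TERF2 itself rose about as much, from 771, 821 and 705 to 4127, 9882 and 4798 normalized counts on the 15-library scale (log2 fold change 3.03 ± 0.25), and its effect did not differ detectably between the states (0.20, adjusted p = 0.79). The groups share no library between the states, but state and deposit coincide. Both young groups were at PD 30, whereas the senescent groups were at PD 71 and PD 75. Per the study, TRF2 was expressed for days in young cells and over many divisions in senescent cells. In a difference of effects between the states, these cannot be told apart. Of the 28 genes called in young cells, 7 were also among the 264 called in senescent cells without the third empty-vector library (25% and 2.65% of the lists), all in the same direction: TERF2, APC2, DCN and PODN higher, and RGS5, PARP3 and SERPINB7 lower. RGS5, a regulator of G-protein signalling, had log2 fold changes of -0.55 and -0.90. The 28 came from the 15-library model and the 264 from another fit, so the counts are not alike. The 15-library model called 1782 genes in senescent cells, with LUM and MFAP4 among them (adjusted p = 0.00072 and 0.0061). Both were also called in young cells (0.041 and 0.011), and the whole overlap within that model was not counted. The difference of the effect passed the test for 179 genes, with a more positive effect in senescent cells in 28 and a more negative one in 151 (0.177% and 0.956%). That count was 8 with only the 12 libraries of the 4 groups and ran from 6 to 2089 with 1 library left out.

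The 5 genes with the smallest p for that difference had log2 fold changes of opposite sign in the 2 states. None of the 5 was called in young cells, where their adjusted p lay between 0.35 (SRGN) and 0.63 (ASS1), so their sign there is uncertain. TFPI2 had means of 6185 and 7652 without and with TRF2 in young cells, and of 7298 and 2910 in senescent cells (difference -1.63 ± 0.19, adjusted p = 0.0039). CTSK, the collagen-degrading cathepsin K, had 2436 and 3050, then 1624 and 612 (-1.73, 0.0046). SRGN, the granule proteoglycan serglycin, went the other way, with 1568 and 1330 in young and 1349 and 2145 in senescent cells (0.91, 0.0058). STC2 and ASS1 were lower with TRF2 in senescent cells (differences -0.86 and -1.36, adjusted p = 0.0074 and 0.0099).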

How the data were processed

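RNA was sequenced from 15 MRC-5 libraries in 5 groups of 3. Per the submitters' notes, Trimmomatic served for trimming and STAR for mapping to GRCh38, and the deposited values are raw read counts per gene. Which annotation and which strand column were used is not given in the sources used here, so reads of antisense and overlapping genes may be mixed. Total counts of the 6 senescent libraries were 26725885 to 36202562, and the 3 libraries per group limit the precision. Groups and replicate numbers came from the labels. No 2 libraries of a group were duplicates.

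Genes were named and placed with GENCODE 44. Counts of the 6 libraries were filtered with filterByExpr, scaled by TMM factors and tested in edgeR 4.0.16, under R 4.3.3 (quasi-likelihood test, Benjamini-Hochberg adjustment over all tested genes, calls at an adjusted p of 0.05 without a fold threshold). The difference of the TRF2 effect between senescent and young cells, and the effect in young cells, came from one model of all 15 libraries with a mean per group. Alternatives were DESeq2 1.42.0, limma 3.58.1 voom with sample quality weights, RLE factors, no filter, fold thresholds (0.58 and 1, log2), a replicate block, protein-coding genes and pseudogenes only, all 15 libraries, each library left out, and offsets for GC content and length (loess, span 0.3, prior count 1). Added after seeing the data were the fits without the third empty-vector library with 14 libraries, with offsets and with DESeq2. The steps were tested on simulated data. Motifs were searched on both strands of RefSeq promoters of 300 bases.

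The named genes were TERF2, 12 genes higher and 12 lower by the rule given in the text (filled by the smallest p), members of 59 gene lists, the 5 smallest interaction p, and called genes within 2 Mb of a chromosome end. PCDHB15 has a mean below the minimum of 100 and is named as a list member. The genes that stood out by their spread, RGS5 and NSD2 were named after their values were seen. The comparison, the lists and the rules were chosen with earlier results of these data known. Histone marks, protein levels and siLMNB1 cells were not analysed here.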

Additional observations from a re-analysis of the deposited data

Results flagged for a closer look

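Each gene below had a TRF2 effect that differed between senescent and young cells by the test of the difference itself (edgeR's quasi-likelihood test, adjusted p below 0.05, 15 libraries). These calls depend on the libraries fitted. In all, 179 genes passed, against 8 with only the 12 libraries of the 4 groups and 6 to 2089 with 1 library left out. The values are differences of log2 fold changes, senescent minus young, and no cause was tested. Among genes of replication and mitosis they were -1.22 for GINS4, -1.19 for CDC6, -1.31 for CDC45, -1.68 for CLSPN, -1.002 for CDK1, -1.12 for NDC80, -0.96 for UBE2C, -0.80 for BUB1, -0.88 for BUB1B, -0.79 for TOP2A and -0.85 for TACC3. HMGA1 and HMGA2 stood at -0.94 and -1.34. Negative differences were also found for genes of secreted and other proteins, with -1.63 for TFPI2, -1.73 for CTSK, -0.86 for STC2, -1.88 for STC1, -2.17 for SERPINB2, -0.72 for PLAT, which encodes tissue plasminogen activator, -1.32 for PLAU, -1.41 for GDF15, -3.88 for CXCL8, -1.26 for IL6 and -0.93 for SPON2. The interferon-stimulated genes IFIT3, IFIT2, IFI6 and MX1 gave -1.19, -1.38, -2.11 and -1.93, and the mitochondrial MT-ND4, MT-ND5 and MT-ND6 gave -1.68, -1.60 and -1.60. ASS1, VEPH1, QPRT and SP140 gave -1.36, -1.16, -0.89 and -1.99, and MT2A and MT1E gave -1.53 and -1.52. Genes with a more positive effect in senescent cells were NPY at 2.89, PCDHB15 at 2.23, FZD4 at 1.27, CXCL12 at 1.08, SRGN at 0.91, PTN at 0.88, CDH2 at 0.77, GPC4 at 0.71 and SDC2 at 0.62. State and deposit coincide in these libraries. The time under TRF2 also differed between the states, and only the senescent groups differed in PD, so these cannot be told apart.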

How the results depend on the processing

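TERF2 kept its rise and its call in all alternatives, with log2 fold changes from 3.09 to 3.33 and adjusted p up to 0.034. The number of called genes did not hold. With all 6 libraries 2 genes were higher and 0 lower, as with RLE factors, either fold threshold and protein-coding genes and pseudogenes only. Higher and lower calls were 770 and 1012 with all 15 libraries, 255 and 491 with DESeq2, 427 and 551 without a filter, 102 and 227 with GC and length offsets, and 755 and 857 with quality weights. With 1 library left out they ran from 1 to 567 and from 0 to 689, the most without the first empty-vector library. In the fits added after seeing the data, without the third empty-vector library, they were 863 and 889 with 14 libraries, 128 and 199 with offsets, and 528 and 612 with DESeq2. The replicate numbers did not pair the samples (correlations of same-numbered deviations -0.07, -0.12 and -0.04), and the fit with them as a replicate block called 1 higher, 121 higher and 185 lower with offsets. For the difference between states, 179 genes passed, against 8 with 12 libraries only, 565 with DESeq2, 955 without a filter, 333 with offsets, 152 with the replicate block, 420 with offsets and the replicate block, and 6 to 2089 with 1 library left out, 2089 without the first senescent empty-vector library. Small effects changed sign: TERF1 to -0.067 and -0.061 with offsets, without and with the block; TERF2IP to 0.002 without a filter, 0.009 and 0.010 with offsets, 0.006 with offsets and the third empty-vector library out; ACD to 0.108 and 0.105 with offsets, 0.122 with quality weights, and 0.099, 0.099 and 0.087 in the fits added. With 1 library left out, TERF2IP ran from -0.044 to 0.011, TINF2 from -0.018 to 0.125, ACD from -0.212 to 0.088, POT1 from -0.156 to 0.056 and CDKN1A from -0.022 to 0.139. The cause was not tested.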
